A study of Mus musculus with 9 samples.

Results

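Serpina3n, Gfap, Vim, C3, Lcn2, Cd44, S100a10, Osmr, Steap4 and Amigo2 are 10 genes known as markers of reactive astrocytes, and their 3′ mRNA counts were examined in the midbrain of mice with and without DJ-1. The genes were chosen by symbol, with Serpina3n as the leading gene, after their values in DJ-1+/+ and DJ-1-/- mice were known. The genotype difference of each is therefore given as a description, with no test of its own. All 10 had at least 1 count among the 26602 genes counted in the series, and 8 of them passed a filter of at least 10 counts over the 9 libraries, as did 18127 genes in all. Lcn2, with 4 counts in total, and Steap4, with 8, did not pass.

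Astrocytes are the star-shaped glia that take up glutamate, supply neurons with metabolites and contact blood vessels. After injury, infection or inflammatory signals they become reactive: they build up intermediate filaments, and induce secreted proteins, adhesion molecules and complement. Much of that program is driven by cytokines of the interleukin-6 family, which signal through the shared receptor chain Il6st and the transcription factor Stat3. DJ-1, the product of the Park7 gene, is a redox-responsive protein whose loss causes a recessive form of Parkinson disease.

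The libraries came from midbrain tissue containing the substantia nigra of 3- to 4-month-old mice, 4 DJ-1+/+ and 5 DJ-1-/-, and each library was made from its own animal. The DJ-1-/- mice carried a targeted Park7 allele in every cell of the body, on a C57BL/6 background, and were compared with DJ-1+/+ animals raised in the same breeding. No animal was treated. The tissue was not sorted, so the counts pool astrocytes with neurons, other glia and vessels, and fewer cells of a type and less RNA per cell cannot be told apart. Levels below are counts per 1000000 counts of a library (cpm), as mean ± SD over mice, and a fold change is the fitted log2 ratio of DJ-1-/- over DJ-1+/+ with its standard error (SE).

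Park7 itself followed the labels, at 135 ± 15.7 cpm in DJ-1+/+ (n = 4) and 20.4 ± 4.54 cpm in DJ-1-/- (n = 5), and it was the 1 gene of 18127 (0.00552%) with an adjusted p under 0.05 (edgeR quasi-likelihood test, Benjamini-Hochberg). Without adjustment, 513 genes (2.83%) had a p under 0.05, and the levels of the groups did not overlap for 226 genes (1.25%). Every DJ-1-/- library was deeper (967751 to 1098125 counts) than every DJ-1+/+ library (841974 to 886085 counts). The Y-linked gene Ddx3y was counted 113 to 152 times in DJ-1+/+ mice 1 and 4 and DJ-1-/- mouse 5, and at most 4 times in the other 6. The dopamine neuron markers Th and Slc6a3 were present in all 9 libraries but differed between genotypes. Th had 56, 100, 37 and 30 counts in DJ-1+/+ mice and 80, 119, 107, 111 and 80 in DJ-1-/- mice. Slc6a3 had 31, 114, 20 and 27 counts against 58, 131, 111, 103 and 105. For both genes, DJ-1+/+ mice 1, 3 and 4 lay below every DJ-1-/- mouse. The part of the dissection in this difference was not tested. All 18 homeostatic astrocyte genes examined passed the filter, with summed levels of 3557 to 3966 cpm in DJ-1+/+ and 3673 to 4000 cpm in DJ-1-/-.

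The sequences before 3 of the genes are shown because Stat3 is the factor most often named for this program, and because their counts differed so widely. Serpina3n had the largest fold change for its SE among the 8 genes fitted, Gfap had the most counts, and Steap4 was the sole one with a Stat-type motif. Each is the 250 bases that end just before the transcription start given by RefSeq (GRCm38.p6), printed 5′ to 3′ on the gene's own strand. They lie at chr12:104406458-104406707 (+ strand) for Serpina3n, chr11:102897201-102897450 (- strand) for Gfap and chr5:7960222-7960471 (+ strand) for Steap4, and capitals mark the motif. The Serpina3n window ends at position 104406707, before the GENCODE start of the gene at 104406729, and the RefSeq bases that follow it were found in no GENCODE transcript of Serpina3n, so its start is uncertain. The Gfap window lies inside the GENCODE gene (102887336-102900912), and the Steap4 window ends past the GENCODE start of Steap4 at 7960457. For these genes the RefSeq bases that follow were found in a GENCODE transcript of the gene.
Serpina3n: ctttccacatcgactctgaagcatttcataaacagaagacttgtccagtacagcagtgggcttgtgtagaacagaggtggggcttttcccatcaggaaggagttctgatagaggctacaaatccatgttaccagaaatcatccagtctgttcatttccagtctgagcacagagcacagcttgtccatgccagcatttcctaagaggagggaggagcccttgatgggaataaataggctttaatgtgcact
Gfap: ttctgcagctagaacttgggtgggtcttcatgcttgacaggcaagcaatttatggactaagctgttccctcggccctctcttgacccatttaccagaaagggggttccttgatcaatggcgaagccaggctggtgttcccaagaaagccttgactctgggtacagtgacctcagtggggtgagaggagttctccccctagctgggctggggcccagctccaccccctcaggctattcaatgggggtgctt
Steap4: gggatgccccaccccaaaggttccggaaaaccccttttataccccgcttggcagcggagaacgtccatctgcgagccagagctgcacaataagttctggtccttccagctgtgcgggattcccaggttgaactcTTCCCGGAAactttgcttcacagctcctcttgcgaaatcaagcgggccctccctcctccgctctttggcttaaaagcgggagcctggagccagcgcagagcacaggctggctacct
The Stat motif TTCNNNGAA, which reads the same on both strands, stood in 1 of the 9 listed genes with a RefSeq entry, 116 bases before the Steap4 start, and in 7.02% of 32851 mouse promoters of the same length. The AP-1 motif TGANTCA, also the same on both strands, stood in 0 of the 9 and in 6.75% of all promoters. A letter match is a description of these windows, and sites farther away were not searched.

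Serpina3n, which encodes a secreted inhibitor of serine proteases and is among the genes most strongly induced in reactive astrocytes, lies at chr12:104406729-104414329 on the + strand (GRCm38). It was counted 13, 33, 41 and 25 times in DJ-1+/+ mice 1 to 4, and 51, 57, 67, 45 and 37 times in DJ-1-/- mice 1 to 5. Scaled to depth, the levels were 15.4, 37.5, 47.7 and 28.2 cpm against 51.1, 51.9, 69.1, 46.5 and 36.1 cpm. The groups overlapped: DJ-1+/+ mice 2 and 3 lay within the DJ-1-/- range, and DJ-1+/+ mice 1 and 4 lay below every DJ-1-/- mouse. The means were 32.2 ± 13.7 cpm (n = 4) and 50.9 ± 11.96 cpm (n = 5), a ratio of 1.58 and a log2 fold change of 0.65 (SE 0.25).

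The difference between the means was smaller than the range of levels within either genotype. The lowest DJ-1+/+ count of 13 had a 95% exact Poisson interval of 6.92 to 22.2 counts, which lay below the interval of the highest DJ-1+/+ count of 41 (29.4 to 55.6). These intervals cover counting error only. Within each genotype, Serpina3n was lowest in the libraries with Y-linked counts. Without DJ-1+/+ mouse 1 the log2 fold change was 0.43 (SE 0.22), and without DJ-1+/+ mice 1 and 4 it was 0.26 (SE 0.23). Without all 3 libraries with Y-linked counts it was 0.36 (SE 0.21), and with the level of Xist as a covariate 0.43 (SE 0.20). Without DJ-1+/+ mouse 3, the DJ-1+/+ mouse with the highest level, it was 0.90 (SE 0.26). The part of sex in the difference was not tested, since the labels do not give it.

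**Figure D1:**
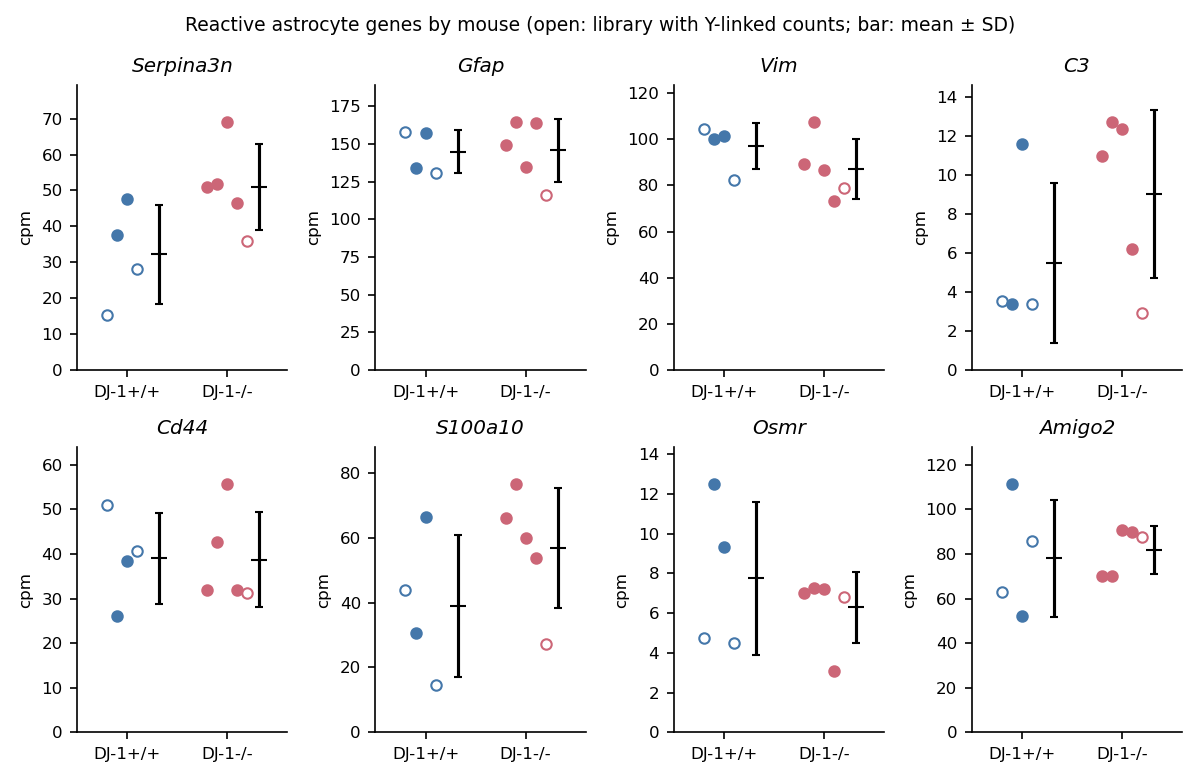
Level in cpm (y axis, from 0) of the 8 listed genes that passed the filter, by genotype (x axis). Each point is a mouse, open points are the libraries with Y-linked counts, and bars are mean ± SD (n = 4 DJ-1+/+, n = 5 DJ-1-/-). The genotypes overlap in every panel, and Serpina3n shows DJ-1+/+ mice 1 and 4, at 15.4 and 28.2 cpm, below all DJ-1-/- mice.

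Serpina3n belongs to a cluster of close relatives on chromosome 12, among which short 3′ tags could be divided. The other 10 Serpina3 genes examined added 0 to 6.19 cpm per library when summed, and none exceeded 3 counts in any library. Serpina3g was the sole one of them to pass the filter, with 11 counts in total.

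The intermediate filament genes Gfap and Vim, whose protein accumulation is the classical sign of reactive astrocytes, showed smaller differences. Gfap (chr11:102887336-102900912, - strand) was counted 133, 118, 135 and 116 times in DJ-1+/+ mice and 149, 181, 131, 159 and 119 times in DJ-1-/- mice. At 145.0 ± 14.5 cpm (n = 4) and 145.9 ± 20.7 cpm (n = 5) its means were close to equal, with a log2 fold change of 0.01 (SE 0.10) whose sign changed with the library left out. The highest and the lowest levels of all 9 mice, 164.8 and 116.0 cpm, were both in DJ-1-/- mice.

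Vim (chr2:13573927-13582826, + strand) encodes vimentin, which endothelial cells, microglia and fibroblasts also make. Its counts were 88, 88, 87 and 73 in DJ-1+/+ mice and 89, 118, 84, 71 and 81 in DJ-1-/- mice. The levels, 97.0 ± 9.95 cpm (n = 4) and 87.1 ± 12.98 cpm (n = 5), overlapped, and the log2 fold change was -0.15 (SE 0.11). It was below 0 under every alternative run, from -0.24 to -0.11.

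C3 and Amigo2 are markers of the A1-type reactive state described after inflammatory stimuli. C3 (chr17:57203970-57228136, - strand), the central complement component, was counted 3, 3, 10 and 3 times in DJ-1+/+ mice and 11, 14, 12, 6 and 3 times in DJ-1-/- mice. A total of 3 counts, used here as the floor in each library and set apart from the Poisson intervals, corresponds to 2.73 to 3.56 cpm at these depths, so 3 DJ-1+/+ mice and 1 DJ-1-/- mouse stood at that floor. DJ-1+/+ mouse 3 lay among the 3 highest DJ-1-/- mice. The means were 5.50 ± 4.09 cpm (n = 4) and 9.05 ± 4.31 cpm (n = 5), and the log2 fold change was 0.71 (SE 0.50), an error that left it poorly determined. It was 1.36 (SE 0.54) without DJ-1+/+ mouse 3 and 0.27 (SE 0.59) without DJ-1+/+ mice 1 and 4. With the level of Xist as a covariate it was 0.33 (SE 0.47), and without the 3 libraries with Y-linked counts 0.50 (SE 0.52).

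Amigo2 (chr15:97244125-97247287, - strand), a cell adhesion protein that neurons also make, was counted 53, 98, 45 and 76 times in DJ-1+/+ mice and 70, 77, 88, 87 and 90 times in DJ-1-/- mice. The 5 DJ-1-/- mice lay inside the DJ-1+/+ range, and the DJ-1+/+ mice spread more widely, with an SD of 26.2 against 10.7 cpm. The means of 78.1 (n = 4) and 81.7 cpm (n = 5) gave a log2 fold change of 0.06 (SE 0.17). Amigo2 overlaps Pced1b on the other strand, a gene with 133 counts in all against 684 for Amigo2.

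S100a10, a partner of annexin A2 and a marker of the A2-type state described after ischemia, varied widely between mice. It lies at chr3:93555080-93564643 (+ strand), and its counts were 37, 27, 57 and 13 in DJ-1+/+ mice and 66, 84, 58, 52 and 28 in DJ-1-/- mice. The levels, 43.9, 30.7, 66.3 and 14.7 cpm against 66.1, 76.5, 59.8, 53.7 and 27.3 cpm, overlapped at both ends, with DJ-1+/+ mouse 3 among the high DJ-1-/- mice and DJ-1-/- mouse 5 among the low DJ-1+/+ mice. The means were 38.9 ± 21.8 cpm (n = 4) and 56.7 ± 18.5 cpm (n = 5), and the log2 fold change was 0.55 (SE 0.32). It was 0.27 (SE 0.28) without DJ-1+/+ mouse 4 and 0.93 (SE 0.32) without DJ-1+/+ mouse 3.

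The levels of both receptors overlapped between genotypes. Cd44 (chr2:102811141-102901665, - strand), the hyaluronan receptor, was counted 43, 23, 33 and 36 times in DJ-1+/+ mice and 32, 47, 54, 31 and 32 times in DJ-1-/- mice. Its means were 39.1 ± 10.2 cpm (n = 4) and 38.8 ± 10.6 cpm (n = 5), and the log2 fold change was -0.01 (SE 0.22), with a sign that changed among the alternatives. Osmr (chr15:6813577-6874969, - strand), the oncostatin M receptor chain that pairs with Il6st, was counted 4, 11, 8 and 4 times in DJ-1+/+ mice and 7, 8, 7, 3 and 7 times in DJ-1-/- mice. At 7.77 ± 3.85 cpm (n = 4) and 6.29 ± 1.79 cpm (n = 5), its log2 fold change was -0.29 (SE 0.41), and 0.02 (SE 0.45) without DJ-1+/+ mouse 2.

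Lcn2 (chr2:32384633-32388252, - strand), the siderophore-binding protein lipocalin-2 that reactive astrocytes secrete after endotoxin, was counted 2, 1, 0 and 0 times in DJ-1+/+ mice. In DJ-1-/- mice it was counted once, in mouse 2. Steap4 (chr5:7960457-7982213, + strand), a metalloreductase, was counted 0, 0, 1 and 2 times in DJ-1+/+ mice and 0, 1, 1, 1 and 2 times in DJ-1-/- mice. Both were at or under the floor of 3 counts in every library, so no difference was detectable at this depth and no fold change is given.

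Of the 10 genes, 0 had an adjusted p under 0.05 in edgeR or in DESeq2, beside 0.00552% of all genes tested in edgeR. The count at an unadjusted p under 0.05 was 1 of the 8 fitted (Serpina3n) in both tools. Over all genes it was 513 (2.83%) in edgeR and 235 in DESeq2. This count is no test of Serpina3n, whose fold change fell to 0.26 (SE 0.23) without DJ-1+/+ mice 1 and 4. The genotypes did not overlap for 0 of the 10, beside 1.25% of all genes. Of the 8 that passed the filter, 5 were higher and 3 lower in DJ-1-/-, and their median log2 fold change was 0.03, beside 0.01 over all 18127 genes. Because the genes were chosen with this contrast known, nothing is read from these shares.

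**Figure D2:**
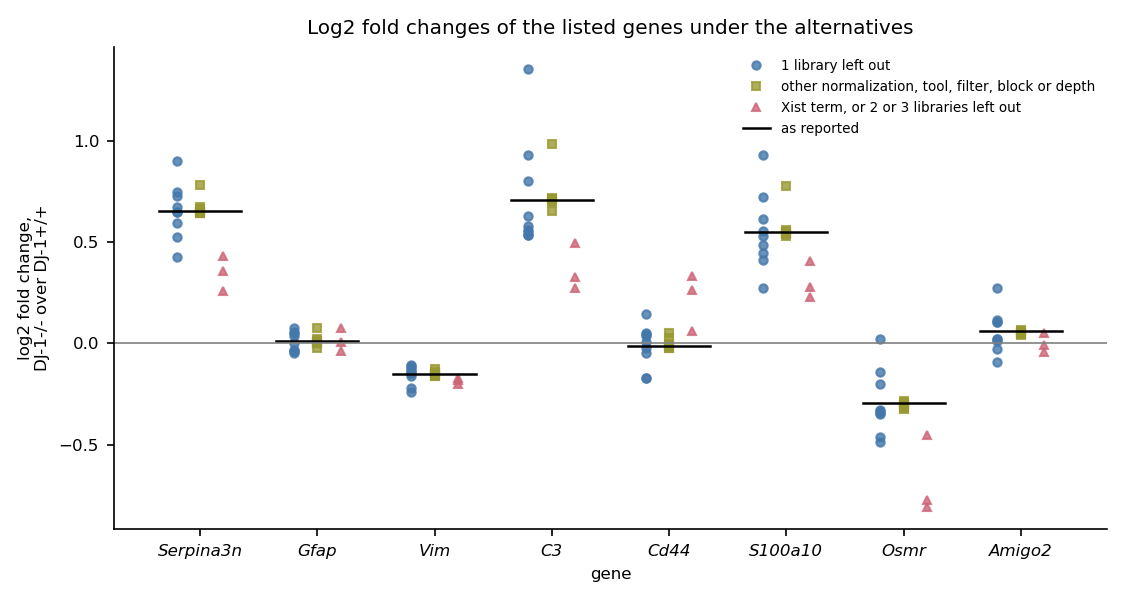
Log2 fold change, DJ-1-/- over DJ-1+/+ (y axis), of the 8 listed genes that passed the filter (x axis), as reported (line), with 1 library left out (circles), with another normalization, tool, filter, replicate block or depth (squares), and with an Xist term or several libraries left out (triangles). Serpina3n stayed above 0, from 0.26 to 0.90, as did C3 and S100a10, whereas Gfap, Cd44, Osmr and Amigo2 fell on both sides of 0.

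The genes also differed in how far mice of 1 genotype spread beyond counting error. An index of that spread, the Poisson dispersion of counts within genotype over 7 degrees of freedom, had a median of 1.11 and a 90th percentile of 3.02 over the 12637 genes with at least 90 counts. S100a10 stood at 8.18, above 97.8% of those genes, Amigo2 at 4.07 and Serpina3n at 3.73, above 93.2%. Cd44, at 2.63, and Gfap, at 2.26, were below the 90th percentile, and Vim, at 1.54, was closer to the median.

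The listed genes with at least 100 counts did not all move with Serpina3n or with Gfap across mice. C3, Osmr, Lcn2 and Steap4 had fewer counts and were left out, as were pairs without Serpina3n or Gfap. C3, Serpina3n and S100a10 each had their highest levels in DJ-1+/+ mouse 3 and DJ-1-/- mice 1 to 3. Over the 9 libraries, Pearson's r of log2(cpm + 1) between Serpina3n and S100a10 was 0.52, and it was 0.14 with Amigo2, 0.04 with Gfap, -0.09 with Cd44 and -0.19 with Vim. Gfap had its highest value among these genes with S100a10 (0.70) and its lowest with Amigo2 (-0.55). Of 12408 genes with at least 100 counts, those most like Serpina3n were Gadd45gip1 (0.957), B230217O12Rik (0.95), Cdh9 (0.948), Fam196a (0.943) and Rab7b (0.922). Those most like Gfap were Sh3bp5 (0.931), Tango2 (0.925), Pigyl (0.924), Prmt3 (0.914) and Serf1 (0.913). These values are a description over 9 points that share the 2 genotypes, their depth and their tissue pieces, and the highest of so many genes is high by selection.

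The other genes of the reactive program and of the cytokine pathway were counted at the same thresholds. Of 50 such genes 40 passed the filter, and 0 had an adjusted p under 0.05 in edgeR or DESeq2, beside 0.00552% of all genes in edgeR. Park7 alone passed that threshold in edgeR, so the 0 does not show that these genes were unchanged. At an unadjusted p under 0.05 there were 0 higher and 1 lower in edgeR, and 0 in DESeq2, beside 2.83% of all genes in edgeR. The 1 was Timp1, an inhibitor of matrix metalloproteases, with 5, 1, 3 and 1 counts in DJ-1+/+ mice and 1, 1, 1, 0 and 1 counts in DJ-1-/- mice (adjusted p = 1, edgeR). Its mean was under 3 counts in both genotypes, so no fold change is given. The 34 genes with a mean above 3 counts in at least 1 genotype divided into 21 higher and 13 lower, with a median log2 fold change of 0.06.

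Among the cytokines that start the program, Il6, Lif, Osm, Tnf and Il1a had 0 to 7 counts in all 9 libraries together, and Cntf 12. Il6st, the receptor chain shared by the interleukin-6 family members among them, was at 136.9 ± 9.09 cpm in DJ-1+/+ (n = 4) and 132.2 ± 7.39 cpm in DJ-1-/- (n = 5), with a log2 fold change of -0.05 (SE 0.08). The kinase Jak1 was at 208.7 ± 13.8 and 210.6 ± 16.7 cpm, a log2 fold change of 0.01 (SE 0.08). Stat3 was at 125.6 ± 20.9 and 127.7 ± 6.22 cpm, a log2 fold change of 0.02 (SE 0.10). Socs3, a feedback inhibitor that Stat3 induces, had the highest log2 fold change of the pathway list, 0.56 (SE 0.43), on 2 to 6 counts in DJ-1+/+ mice and 5 to 11 in DJ-1-/- mice. Among genes with a mean above 3 counts in at least 1 genotype, the lowest was that of Nfia, -0.12 (SE 0.09). Cntf stood lower in the fit, with means under 3 counts. Over the 18 genes of that list, 12 had a fold change, 7 of them higher and 5 lower, with a median of 0.02.

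By state, the other pan-reactive genes had a median log2 fold change of -0.04 over 4 genes, from -0.54 (SE 0.61) for Aspg to 0.10 (SE 0.19) for Cp, the ferroxidase ceruloplasmin. The other A1-type genes had a median of 0.08 over 9, 5 higher and 4 lower, from -0.36 (SE 0.26) for Fbln5 to 0.31 (SE 0.37) for Iigp1, an interferon-induced GTPase. The other A2-type genes had a median of 0.20 over 6, 5 higher and 1 lower, from -0.41 (SE 0.34) for Emp1 to 0.43 (SE 0.80) for Ptgs2, the inducible cyclooxygenase. In that list B3gnt5 (14 counts in all) and Clcf1 (10 counts) stood at the extremes of the fit, both with means under 3 counts. Among the filament partners of Gfap and Vim, Synm was at 0.09 (SE 0.08), Plec at -0.01 (SE 0.08) and Nes at 0.37 (SE 0.31), whereas Des had 21 counts in all.

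**Figure D3:**
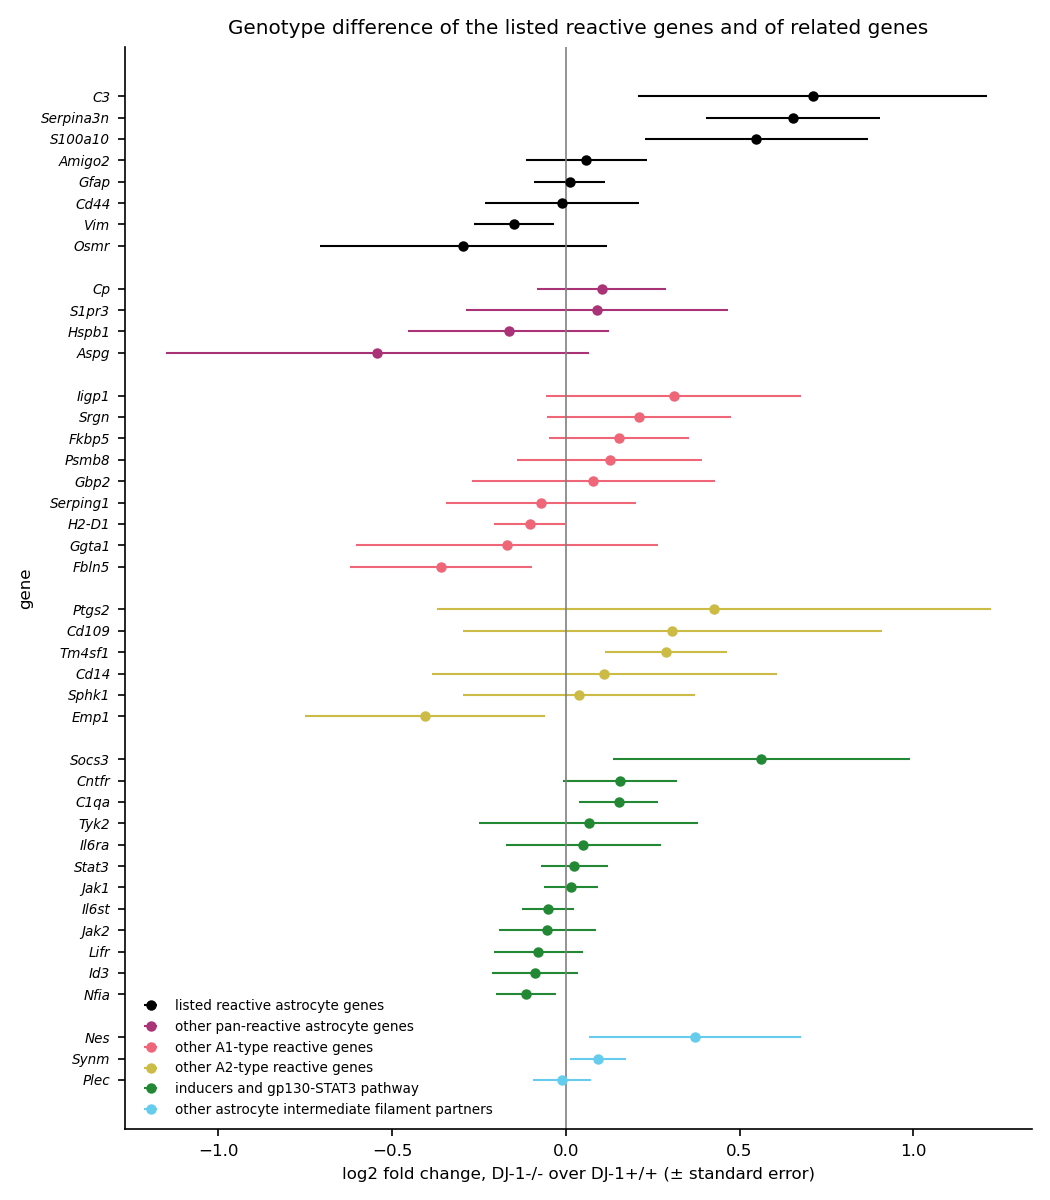
Log2 fold change ± SE (x axis), DJ-1-/- over DJ-1+/+, of the 8 listed genes and 34 related genes with a mean above 3 counts in at least 1 genotype (y axis), coloured by list. C3, Serpina3n and S100a10, at 0.71, 0.65 and 0.55, stand at the right of their group, and the signalling genes Stat3, Jak1 and Il6st lie near 0 with SEs of at most 0.10.

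Serpina3n and Fkbp5 also respond to glucocorticoids, so a list of 10 glucocorticoid-induced genes was examined. It had 7 higher and 3 lower, with a median log2 fold change of 0.09, from -0.11 (SE 0.18) for Cdkn1a to 0.40 (SE 0.17) for the clock gene Per1. Per1 was the 1 gene of the list with an unadjusted p under 0.05 (adjusted p = 1, edgeR), and 0 had an adjusted p under 0.05.

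Homeostatic astrocyte genes lay on both sides of 0. Of 18 genes, 8 were higher and 10 lower, with a median log2 fold change of -0.01, from -0.13 (SE 0.06) for the glutamate transporter Slc1a2 to 0.14 (SE 0.09) for Atp1b2, and 0 had an unadjusted p under 0.05 (edgeR). Choroid plexus and cerebellar markers were uneven among the DJ-1+/+ libraries. The 17 choroid plexus genes summed to 1193 cpm in DJ-1+/+ mouse 4 and 478.6 cpm in DJ-1+/+ mouse 1, against 211.2 to 337.8 cpm in the other 7 mice. All 17 were lower in DJ-1-/-, 9 of them at an unadjusted p under 0.05 (Folr1, Aqp1, Cldn2, F5, Kl, Kcnj13, Clic6, Tmem72 and Ttr) and 0 at an adjusted p under 0.05. The 8 cerebellar neuron and Bergmann glia genes summed to 1069 cpm in DJ-1+/+ mouse 1 against 236.2 to 367.9 cpm in the other 8, and 5 (Gabra6, Pcp2, Cbln3, Car8 and Itpr1) were lower at an unadjusted p under 0.05.

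DJ-1+/+ mice 1 and 4, where those markers were highest, were also the DJ-1+/+ mice with the lowest Serpina3n. They were also the DJ-1+/+ mice with Y-linked counts, so among DJ-1+/+ mice sex and tissue composition cannot be told apart. The part of tissue composition in the Serpina3n difference was not tested. Meningeal and fibroblast genes summed to 373.6 to 685.3 cpm in DJ-1+/+ and 399.5 to 659.2 cpm in DJ-1-/- mice, lowest in DJ-1+/+ mouse 4 and DJ-1-/- mouse 5, the mice with the lowest S100a10. Both of these libraries held Y-linked counts, as did that of DJ-1+/+ mouse 1, where S100a10 was at 43.9 cpm. The log2 fold change of S100a10 was 0.28 (SE 0.28) with the level of Xist as a covariate. Without the 3 libraries with Y-linked counts it was 0.41 (SE 0.25). The parts of meningeal cells and of sex in the S100a10 difference were not tested either. Microglia genes (769.6 to 827.2 against 736.8 to 845.9 cpm), endothelial genes (820.5 to 1005 against 808.8 to 975.9 cpm), mural cell genes (339.7 to 393.2 against 329.6 to 404.4 cpm) and ependymal genes (107.0 to 274.2 against 122.8 to 233.1 cpm) overlapped between genotypes. In these lists the mural gene Tagln alone had an unadjusted p under 0.05, with a log2 fold change of -0.99 (SE 0.43, adjusted p = 1, edgeR). Neutrophil genes, which include sources of Lcn2, summed to at most 21.7 cpm.

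**Figure D4:**
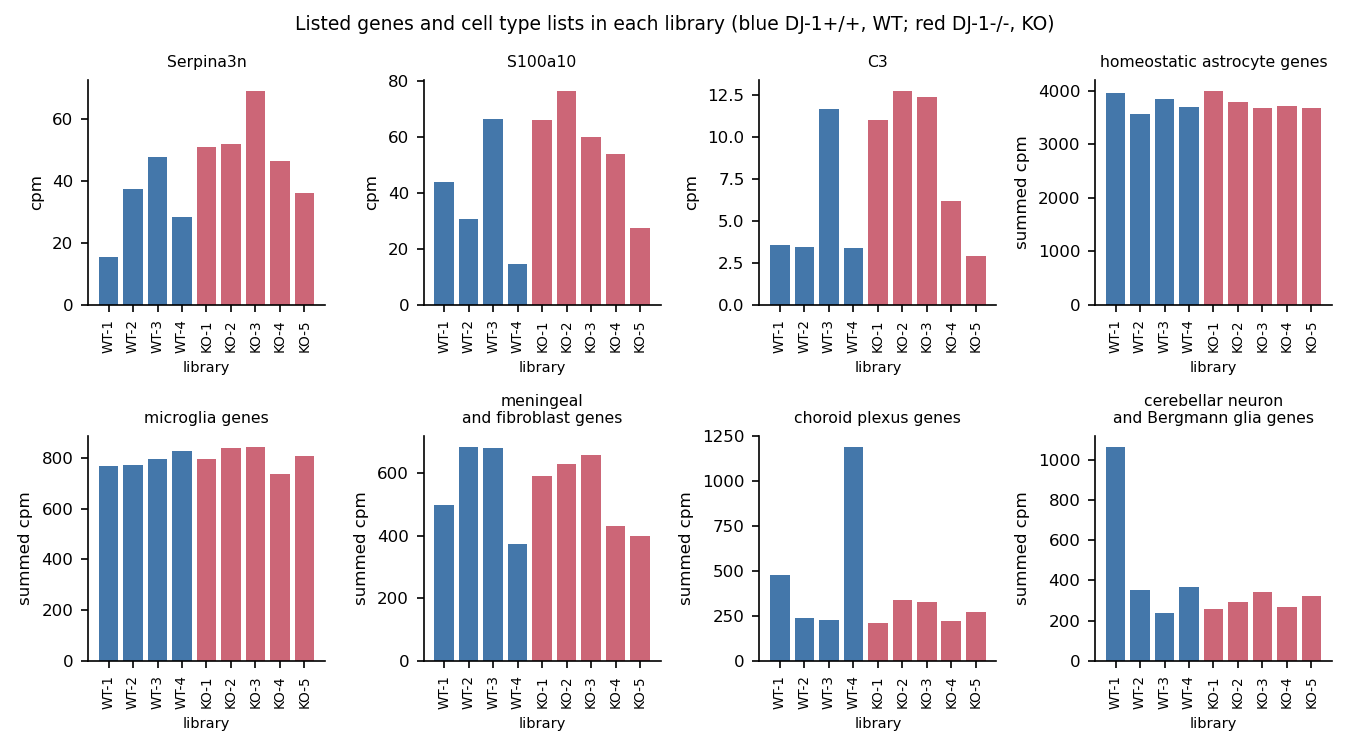
Level in cpm of Serpina3n, S100a10 and C3, and summed cpm of 5 cell type lists (y axes, from 0), in each library (x axis, DJ-1+/+ in blue as WT, DJ-1-/- in red as KO). Choroid plexus genes peak in WT-4 at 1193 cpm and cerebellar genes in WT-1 at 1069 cpm, the 2 DJ-1+/+ libraries with the lowest Serpina3n, while homeostatic astrocyte genes stay between 3557 and 4000 cpm.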

How the data were processed

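The authors deposited a table of raw counts per gene for each of the 9 libraries, made by 3′ mRNA sequencing with unique molecular identifiers, in which each count stands for a molecule tagged near its 3′ end and does not grow with gene length. Per the submitters' processing notes, fastp 0.20.0, STAR 2.7.3a, featureCounts 2.0.0 and UMI-tools 1.0.0 were used with GRCm38. The strand setting of the counting and the annotation version are not given in the sources used here, and positions are from GENCODE M21. A gene not listed in a library was taken as 0. The highest count of any gene was 1040 to 1359 per library.

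Genes whose 9 counts summed to 10 or more were fitted with edgeR 4.0.16 in R 4.3.3 (TMM, quasi-likelihood test, genotype the sole term), with Benjamini-Hochberg adjustment over all 18127 genes and a threshold of 0.05. The SE is the log2 fold change over the root of the F statistic. Alternatives were library totals or RLE size factors, DESeq2 1.42.0, other filters, an Xist covariate, a replicate block, thinned counts and libraries left out. The scripts were tested on simulated counts. Intervals of counts are exact Poisson (95%) and cover counting error only.

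The genes and lists were chosen with earlier results of these data known. Named genes are Park7, the 10 genes, the lowest and highest fold change of each reactive, pathway and astrocyte list, any listed gene with an unadjusted p under 0.05, and the 5 genes most like Serpina3n and Gfap. Other genes were named as context after their values were seen. In the cell type lists other than astrocytes, genes with an extreme fold change are named only where their unadjusted p was under 0.05. Genes with means of 3 counts or fewer in both genotypes have no fold change, which was decided after the data were seen.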

Additional observations from a re-analysis of the deposited data

Results flagged for a closer look

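Of 54 sets of libraries examined (a gene or a summed list within 1 genotype), 4 held a library set apart from the rest of its genotype. For continuous values chance alone sets about 1 in 20 apart. That rate does not hold for few, tied counts, as in C3 and Lcn2. C3 was at 11.63 cpm in DJ-1+/+ mouse 3, against 3.386 to 3.563 cpm in the other 3, which are 3 counts each. Lcn2 was at 0.9106 cpm, a single count, in DJ-1-/- mouse 2 and at 0 in the other 4. Osmr was at 3.1 cpm (3 counts) in DJ-1-/- mouse 4, against 6.821 to 7.285 cpm in the other 4. The summed cerebellar neuron and Bergmann glia genes were at 1069 cpm in DJ-1+/+ mouse 1, against 236.2 to 367.9 cpm in the other 3. Serpina3n, Gfap, Vim, Cd44, S100a10 and Amigo2 had no library set apart in this way.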

How the results depend on the processing

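The 8 listed genes gave 150 fold changes over 19 alternatives, and 150 of them moved by under 1 SD of the mice within genotype. That limit is wide and does not show that a fold change is stable. The fall of Serpina3n from 0.65 to 0.26 (SE 0.23) without DJ-1+/+ mice 1 and 4 lay within it. The alternative without the 3 libraries with Y-linked counts was added after seeing the data. Serpina3n stayed between 0.26 and 0.90, S100a10 between 0.23 and 0.93, and C3 between 0.27 and 1.36 on the log2 scale. Genes with an adjusted p under 0.05 numbered 1, 1 to 2 with a library left out (2 without DJ-1+/+ mouse 2 or 3), 3 without the 3 libraries, 8 with the replicate block and 36 with no filter on low counts. Genes with an unadjusted p under 0.05 numbered 513, against 235 in DESeq2, 802 with no filter and 338 to 732 with a library left out, the lowest without DJ-1-/- mouse 2. The share of those 513 that were higher in DJ-1-/- was 55.56%. With RLE size factors 536 genes had an unadjusted p under 0.05, and 47.76% of these were higher. The 1 other reactive or pathway gene at that threshold, Timp1, was lost, leaving 0, in DESeq2, with a minimum of 90 counts, with the Xist covariate, the replicate block or thinned counts, and without DJ-1+/+ mice 1 and 4 or the 3 libraries. With a library left out the number was 0 to 2. The causes were not tested.

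With the replicate block, the log2 fold change of Serpina3n was 0.78 (SE 0.21). The labels do not say whether replicate numbers pair the mice. The correlations of deviations from the group means for numbers 1 to 4 were 0.28, 0.05, -0.09 and -0.18, which does not settle it. DJ-1-/- mouse 5, which has no partner by number, is left out of the blocked fit. At counts of 3 to 14 per library, as for C3 and Osmr, changes of the size seen for Serpina3n could not be told from 0, and Lcn2 and Steap4 were under the limit of detection of a difference.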
